A study of Saccharomyces cerevisiae with 6 samples.

Results

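The enzymes of upper glycolysis were followed in 2 haploid yeast strains, yJBH012 and yJBH000, by RNA-seq. The group comprises 10 of the 6442 genes in the deposited tables, taken by name. They are the hexose kinases HXK1, HXK2 and GLK1, the isomerase PGI1, the phosphofructokinase subunits PFK1 and PFK2, the kinases PFK26 and PFK27 that make fructose-2,6-bisphosphate, the aldolase FBA1 and the triose phosphate isomerase TPI1. All 10 were found and all 10 passed the filter on low counts. Both strains carry the synthetic chromosome V (synV) and the carotenoid genes crtE, crtI and crtYB with a LEU2 marker at the CAN1 locus of that chromosome, in the BY4741 background. yJBH012 is a single clone obtained from yJBH000 by SCRaMbLE, the Cre-driven rearrangement of loxPsym sites in synV, and it lacks VAC8 (YEL013W) together with YEL014C. Whether the Cre plasmid pCRE4 was still present when RNA was taken is not given in the sources used here. Each strain gave 3 libraries, from flask cultures of 12 h at 30 °C by the labels and in exponential growth in YPD, a glucose medium, by the methods of the study. The labels name the groups S3 and H0, which were taken as yJBH012 and yJBH000 because no other transcriptomes are described. None of the 10 genes lies on chromosome V, and a strain that lacks VAC8 only was not analysed here.

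In upper glycolysis a hexose kinase traps glucose as glucose 6-phosphate, the isomerase turns this into fructose 6-phosphate, and phosphofructokinase adds another phosphate in the committed step. Aldolase then splits the sugar into a pair of triose phosphates, which triose phosphate isomerase interconverts. Phosphofructokinase is switched on by fructose-2,6-bisphosphate, a signal molecule made by the Pfk26 and Pfk27 kinases. In yeast Hxk2 is the main kinase during growth on glucose and also takes part in glucose repression, whereas HXK1 and GLK1 are known as genes that glucose represses. Carotenoids are built from acetyl-CoA that glycolysis supplies, and the comparison asks how the transcripts of its first steps differ in a strain selected for more carotenoid.

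The libraries of yJBH012 held 17675299 to 21568860 counts and those of yJBH000 held 23340054 to 25333938. VAC8 had 0, 0 and 1 counts in the S3 libraries, against 2532, 2473 and 2216 in the H0 libraries, and YEL014C had 0 counts in every S3 library, against 84, 83 and 82. The 6 a-specific genes summed to 1893 to 2119 CPM in yJBH012, against 1662 to 1733 CPM in yJBH000, and the 4 alpha-specific genes summed to 61.9 to 71.1 CPM, against 74.0 to 75.0 CPM. Of the alpha-specific genes, MF(ALPHA)1 stood at no more than 0.827 CPM in any library. MF(ALPHA)2 stood at 6.77 to 12.1 CPM over all libraries, STE3 at 8.16 to 11.5 CPM and SAG1 at 43.4 to 56.6 CPM. The a-specific gene AGA2 stood at 54.4 to 93.5 CPM, so SAG1 was not far below it. The sum of the a-specific genes did not stand for each of them. At the threshold given below, MFA1 and MFA2 were called higher in yJBH012 (log2 fold changes of 1.01 and 0.98). STE6, BAR1 and AGA2 were called lower (-0.33, -0.53 and -0.58), and STE2 was not called. Of the alpha-specific genes, SAG1 was called lower (-0.24) and the other 3 were not called. Replicate 1 of yJBH000 stood apart from replicates 2 and 3, at 16.4 on the second principal component, where they lay at -7.53 and -9.33, so the values of HXK1 and PFK26, and the shares and ratios that hold them, are also given without it. RNA-seq measures shares of the RNA, and more transcript per cell cannot be told apart from less of all other RNA.

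Letters upstream of the genes are shown first, because HXK1 and PFK26 had the largest and the smallest log2 fold change of the group, while GLK1 and HXK2 are the other hexose kinases, added after their values were seen. The sequences are from RefSeq, assembly R64, read 5′ to 3′ on the strand of the gene. The stretch for HXK1 runs from base 540 to base 331 before the start codon, those for GLK1 and HXK2 from base 300 to base 101 and that for PFK26 from base 400 to base 201. The annotation gives no transcription start, so the last 100 bases before each start codon, which can be leader RNA, were left out. Capitals mark AGGGG or its reverse complement CCCCT, the stress response element known to be bound by Msn2 and Msn4, transcription factors of the general stress response.
HXK1, chrVI:255380-255589, minus strand: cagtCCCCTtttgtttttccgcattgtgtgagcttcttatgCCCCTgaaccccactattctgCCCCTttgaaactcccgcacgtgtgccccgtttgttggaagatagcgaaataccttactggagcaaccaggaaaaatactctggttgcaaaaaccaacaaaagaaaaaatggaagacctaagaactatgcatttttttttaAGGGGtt
GLK1, chrIII:50538-50737, plus strand: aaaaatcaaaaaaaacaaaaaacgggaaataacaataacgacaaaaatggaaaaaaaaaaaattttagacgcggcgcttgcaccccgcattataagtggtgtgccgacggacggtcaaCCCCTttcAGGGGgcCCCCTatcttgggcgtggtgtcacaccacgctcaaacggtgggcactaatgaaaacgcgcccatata
HXK2, chrVII:23635-23834, plus strand: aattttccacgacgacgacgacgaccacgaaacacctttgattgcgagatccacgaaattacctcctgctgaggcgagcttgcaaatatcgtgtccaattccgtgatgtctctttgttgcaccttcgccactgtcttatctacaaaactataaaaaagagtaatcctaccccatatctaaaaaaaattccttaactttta
PFK26, chrIX:165962-166161, minus strand: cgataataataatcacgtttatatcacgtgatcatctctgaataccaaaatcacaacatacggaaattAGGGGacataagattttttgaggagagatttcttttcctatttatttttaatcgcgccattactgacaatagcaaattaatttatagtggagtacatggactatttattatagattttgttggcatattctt

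In the window from base 600 to base 101 before the start codon, searched on both strands, HXK1 held 5 copies of AGGGG and GLK1 held 3. The copies of GLK1 began at bases 182, 174 and 167 before the start codon, and those of HXK1 were spread from base 592 to base 337. HXK2 held 0. PFK26 and TPI1 held 1 each, and PGI1, PFK1, PFK2, PFK27 and FBA1 held 0. Of 6000 protein-coding genes with such a window, 35.2% held at least 1 copy and 1.92% held at least 3. The motif CTTCC, known as the core of the site bound by the glycolytic activator Gcr1, was found in the windows of 7 members, with 4 copies in HXK1, 3 each in PGI1 and PFK2, 2 each in PFK1 and TPI1, and 1 each in PFK26 and PFK27. HXK2, GLK1 and FBA1 held 0 copies in this window, and 66.8% of the 6000 windows held at least 1. Both motifs and the window were picked with the values known. A match is a run of letters and does not show binding, and the absence of a match covers this window only.

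Of the 10 genes, 8 were higher in yJBH012, PFK26 was lower and PFK27 was not called, judged at 0.05 by the Benjamini-Hochberg adjusted p over 5904 genes (edgeR's quasi-likelihood fit, TMM factors). Across all genes tested, 34.2% were called higher and 36.2% lower, so a call in either direction was common among all genes. The 3 libraries of one strain lay entirely above those of the other for 9 of the 10 members and for 75.5% of all genes. HXK1, GLK1 and FBA1 were more than 2-fold higher, a size that 10.7% of all genes reached, and they also passed a test against a 2-fold change (glmTreat, adjusted p = 0.0197, 0.00132 and 0.0164). The 10 genes had a median of 0.51 on the log2 scale, all genes -0.011. Together the 10 genes took 3.28% ± 0.08 of all counts in yJBH012 and 1.96% ± 0.06 in yJBH000 (SD, n = 3 each), which is 1.67-fold more. This share needs no scaling between libraries, and all 3 libraries of yJBH012 lay above those of yJBH000 (p = 0.1, two-sided exact permutation test, the smallest p that 3 against 3 libraries can give). FBA1 alone took 1.55% of the counts in yJBH012 and 0.735% in yJBH000, and the other 9 genes took 1.73% and 1.23%, a ratio of 1.41.

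The smaller differences depended on the scaling. With total counts only, all genes had a median difference of -0.35 (log2), the share of higher genes among those called was 25.2% in place of 48.6%, and 5 members were called higher and 2 lower. HXK1, GLK1, FBA1, PFK1 and PFK2 were called higher under both scalings. HXK2, PGI1 and TPI1 stood at log2 fold changes of 0.024, 0.12 and -0.068 by total count, none of them called, and PFK27 at -0.32, called lower (adjusted p = 0.00148, edgeR). Relative to the median of all genes the total-count values were 0.37 for HXK2, 0.47 for PGI1, 0.28 for TPI1 and 0.023 for PFK27. The labels do not say that the replicates are separate cultures, so the p-values measure the spread between these libraries.

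**Figure D1:**
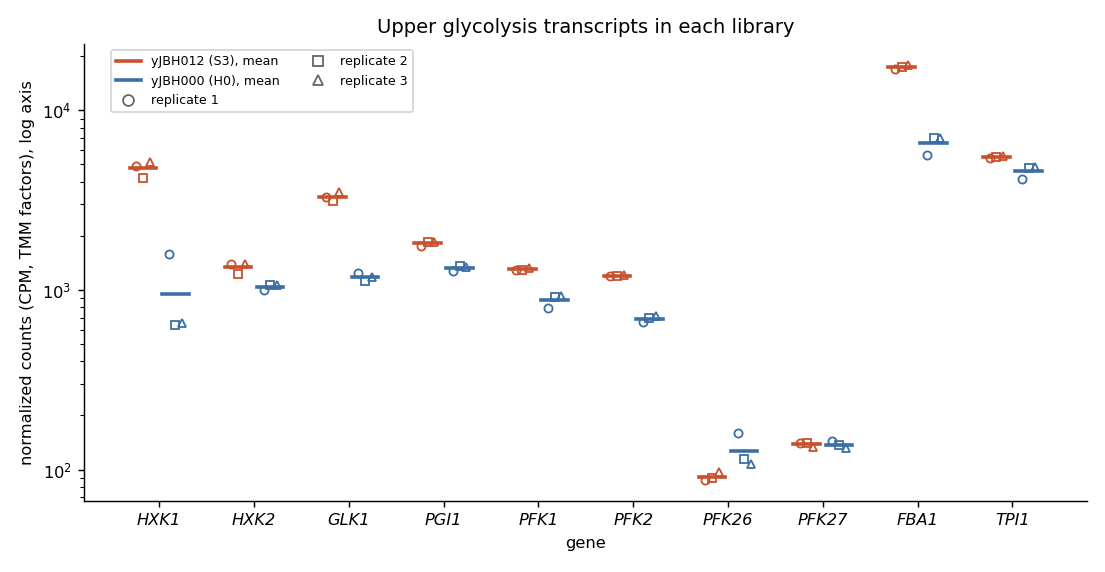
Normalized counts (CPM with TMM factors, log axis) of the 10 upper glycolysis genes in each library, yJBH012 left of yJBH000 for each gene; symbols are replicates and bars are means of 3 libraries. The groups overlap for PFK27 only, and replicate 1 of yJBH000 lies above the other replicates for HXK1 and PFK26 and below them for FBA1.

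The hexose kinases differed most from each other. HXK1 (YFR053C), a hexokinase, had 4924, 4176 and 5180 CPM in yJBH012, against 1580, 634 and 650 CPM in yJBH000. Every library of yJBH012 was above every library of yJBH000, and replicate 1 of yJBH000 was well above its other replicates. The log2 fold change was 2.32 (SE, the standard error derived from the fit, 0.36, 95% interval 1.46 to 3.17, adjusted p = 8.62e-04, edgeR's quasi-likelihood test), which placed HXK1 at rank 105 of the 5904 genes. Without replicate 1 of yJBH000 it was 2.89, with an SE of 0.095. GLK1 (YCL040W), the glucokinase, which does not act on fructose, had 3291, 3121 and 3512 CPM in yJBH012, against 1243, 1123 and 1173 CPM in yJBH000. The replicates were close together in both strains, and the log2 fold change was 1.49 (SE 0.09, adjusted p = 8.36e-06, edgeR), a 2.80-fold difference. Reads on 106 bases of GLK1 also lie on YCL042W, an overlapping gene of the same strand, which had 43 to 46 counts in yJBH012, against 106 to 125 in yJBH000. HXK2 (YGL253W), known as the hexokinase that predominates on glucose, had 1386, 1226 and 1390 CPM in yJBH012, against 999, 1063 and 1059 CPM in yJBH000. This is a log2 fold change of 0.36 (SE 0.08, adjusted p = 0.00478, edgeR), and it was the member whose share of raw counts differed least, at 0.119% in yJBH012 and 0.117% in yJBH000.

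The make-up of the hexose kinase transcripts therefore differed between the strains. Per gene length (FPKM), HXK1 made up 51.1% ± 1.34 of the sum of the 3 kinases in yJBH012 and 29.1% ± 10.95 in yJBH000, and HXK2 made up 14.3% ± 0.37 in yJBH012 and 33.9% ± 6.53 in yJBH000 (SD, n = 3 each, p = 0.1 for both, two-sided exact permutation test). The share of GLK1 was 34.6% ± 1.21 in yJBH012 and 37.0% ± 4.46 in yJBH000, with overlapping libraries (p = 0.4, two-sided exact permutation test). Without replicate 1 of yJBH000 the means of yJBH000 were 22.8% for HXK1, 37.6% for HXK2 and 39.6% for GLK1, and the libraries no longer overlapped for GLK1 either. HXK1 was the most abundant of the 3 in every library of yJBH012. In yJBH000 it was the most abundant in replicate 1, at 41.8%, and the least abundant in replicates 2 and 3, at 22.8% in each. The share of GLK1 was above that of HXK2 in every library of both strains. HXK1 and HXK2 share 77.9% of their aligned bases, and whether reads were counted for the other gene was not tested. Their longest identical run, shown as the stretch where the pair cannot be told apart by sequence, was 23 bases long and lies at bases 247 to 269 of both coding sequences (chrVI:254781-254803, minus strand, in HXK1): TTGGCCATTGATTTGGGTGGTAC. GLK1 shares 69.8% of its aligned bases with EMI2, its paralog, with a longest identical run of 15 bases. EMI2 had 1025, 843 and 1070 CPM in yJBH012, against 429, 271 and 270 CPM in yJBH000, a log2 fold change of 1.60, and its share of the 4 kinase-like transcripts was 9.25% ± 0.35 in yJBH012 and 8.998% ± 0.80 in yJBH000 (p = 0.8, two-sided exact permutation test, n = 3 each), or 8.54% in yJBH000 without replicate 1, where the libraries did not overlap.

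**Figure D2:**
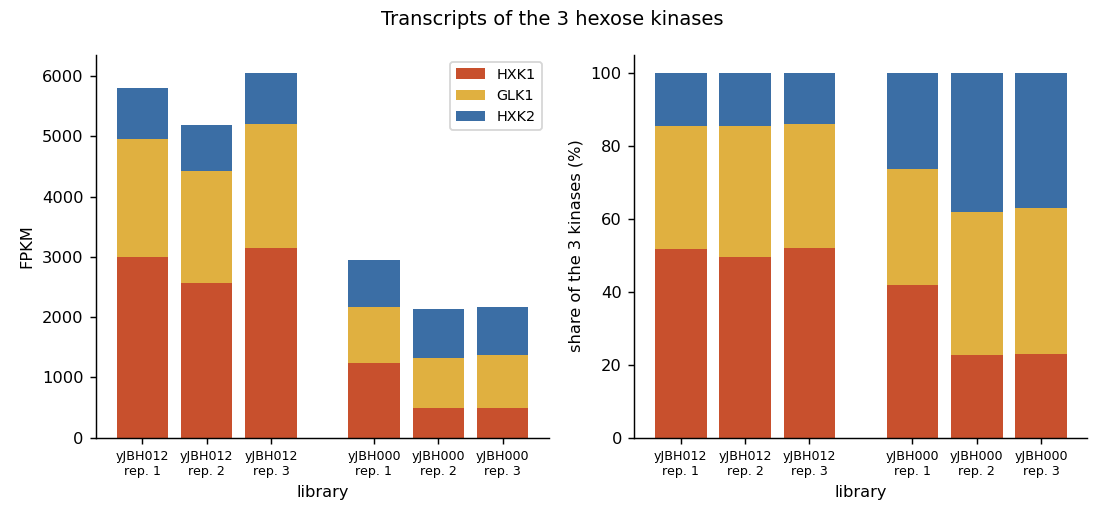
Transcripts of HXK1, GLK1 and HXK2 in each library as stacked FPKM (left) and as percent of their sum (right), with yJBH012 left of yJBH000. HXK2 held 13.9% to 14.6% of the sum in yJBH012 and 26.4% to 38.1% in yJBH000, while HXK1 held 49.6% to 51.9% and 22.8% to 41.8%.

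PGI1 (YBR196C), the phosphoglucose isomerase, had 1754, 1850 and 1843 CPM in yJBH012, against 1278, 1356 and 1344 CPM in yJBH000. Its log2 fold change of 0.45 (SE 0.07, adjusted p = 7.94e-04, edgeR) was a 1.37-fold difference with TMM factors, while its share of raw counts was 0.162% in yJBH012 and 0.149% in yJBH000.

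Phosphofructokinase is an octamer of alpha subunits from PFK1 and beta subunits from PFK2 in equal numbers. PFK1 (YGR240C) had 1296, 1299 and 1317 CPM in yJBH012, against 791, 913 and 930 CPM in yJBH000, a log2 fold change of 0.57 (SE 0.08, adjusted p = 5.62e-04, edgeR). PFK2 (YMR205C) had 1198, 1190 and 1218 CPM in yJBH012, against 659, 695 and 714 CPM in yJBH000, a log2 fold change of 0.80 (SE 0.07, adjusted p = 3.42e-05, edgeR). Both subunit transcripts were higher in 3 of 3 libraries, and PFK2 more so. Per gene length the ratio of PFK1 to PFK2 was 1.05 in yJBH012 and 1.24 in yJBH000, with log2 ratios of 0.08 ± 0.01 and 0.30 ± 0.07 (SD, n = 3 each) that did not overlap (p = 0.1, two-sided exact permutation test). By FPKM the subunit transcripts were thus closer to equal in yJBH012, but FPKM was not calibrated between genes and the subunit proteins were not measured. The genes share 68.2% of their bases over 1730 aligned bases, with a longest identical run of 25 bases.

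The kinases that make the activator of phosphofructokinase were not called higher. PFK26 (YIL107C) had 87.4, 90.0 and 96.3 CPM in yJBH012, against 160.2, 114.6 and 107.8 CPM in yJBH000. Its log2 fold change was -0.48 (SE 0.15, adjusted p = 0.0192, edgeR). The groups did not overlap, but the size rested on replicate 1 of yJBH000, without which the log2 fold change was -0.29 (adjusted p = 0.00139), and the call was lost without replicate 1 or replicate 2 of yJBH012 (log2 fold changes of -0.45 and -0.47, adjusted p = 0.0747 and 0.0703), although the size hardly moved. PFK27 (YOL136C) had 140.5, 139.7 and 134.2 CPM in yJBH012, against 143.4, 136.2 and 131.4 CPM in yJBH000. The libraries overlapped, and the log2 fold change was 0.012 with a 95% interval of -0.11 to 0.14. PFK26 made up 24.1% ± 1.37 of the FPKM of these kinases in yJBH012 and 30.7% ± 3.70 in yJBH000 (SD, n = 3 each), or 28.5% without replicate 1 of yJBH000, so that PFK27 was the main transcript in both strains. No other coding sequence matched PFK26 or PFK27 in a BLAST search at the nucleotide level with an e-value limit of 1e-10. Weaker likeness and likeness between proteins were not searched.

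FBA1 (YKL060C) and TPI1 (YDR050C) encode the enzymes that cleave fructose-1,6-bisphosphate and interconvert its products. FBA1 had 16884, 17379 and 17933 CPM in yJBH012, against 5608, 7046 and 6991 CPM in yJBH000, a log2 fold change of 1.41 (SE 0.12, adjusted p = 4.41e-05, edgeR). TPI1 had 5454, 5512 and 5566 CPM in yJBH012, against 4168, 4772 and 4808 CPM in yJBH000, a log2 fold change of 0.27 (SE 0.09, 95% interval 0.05 to 0.48, adjusted p = 0.0334, edgeR). The call of TPI1 was fragile. It was lost when any 1 library other than replicate 1 of yJBH000 was left out, with log2 fold changes of 0.27 to 0.30 and adjusted p from 0.0566 to 0.0738. Without replicate 1 of yJBH000 the call was kept at a smaller size, a log2 fold change of 0.20 (adjusted p = 0.00394, edgeR). The ratio of FBA1 to TPI1 does not depend on scaling, and per gene length it was 2.18 in yJBH012 and 0.985 in yJBH000. The log2 ratios were 1.13 ± 0.03 and -0.02 ± 0.07 (SD, n = 3 each) and did not overlap (p = 0.1, two-sided exact permutation test).

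**Figure D3:**
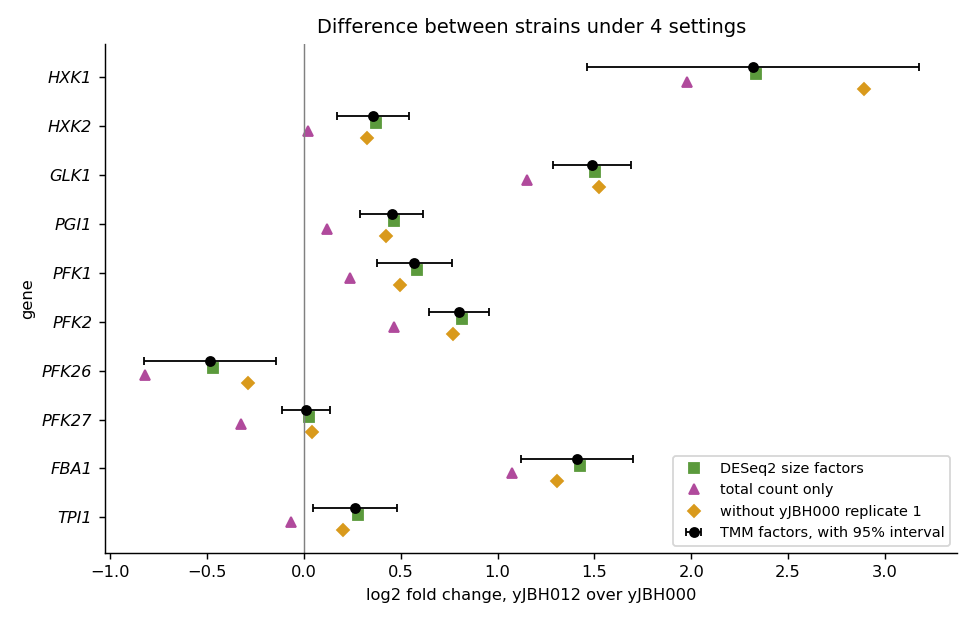
Log2 fold change of yJBH012 over yJBH000 for the 10 genes, with TMM factors and a 95% interval from the edgeR fit, with DESeq2 size factors, with total counts only, and without replicate 1 of yJBH000. HXK1, GLK1, FBA1, PFK1 and PFK2 lie above 0 under each of these settings, PFK26 lies below 0, and TPI1 and PFK27 change sign with total counts only.

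**Figure D4:**
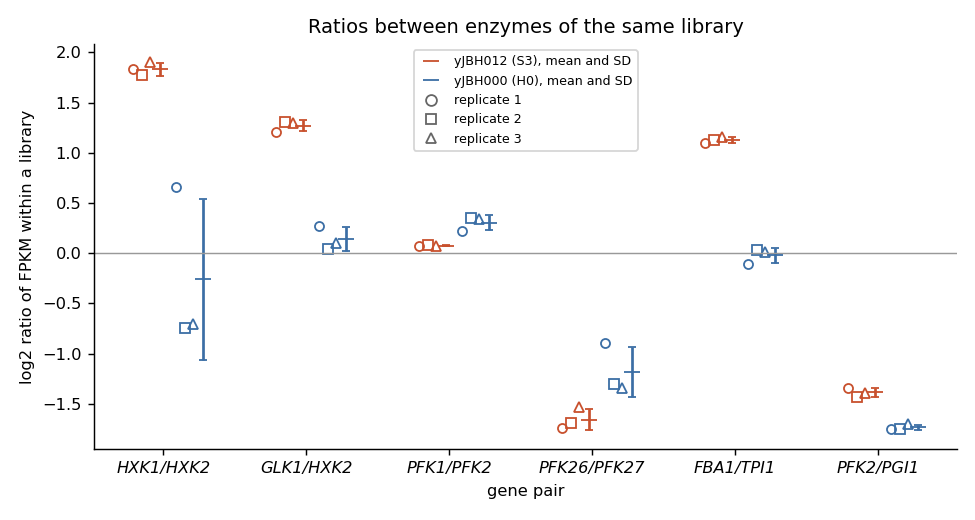
Log2 ratio of FPKM between enzymes in the same library, yJBH012 left of yJBH000 for each gene pair; symbols are replicates, with the mean and SD of 3 libraries beside them. For each of the 6 pairs the libraries of the strains do not overlap, with the ratio of HXK1 to HXK2 at 1.77 to 1.90 in yJBH012 and -0.74 to 0.66 in yJBH000. Taken singly, 75.5% of all genes do not overlap.

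Ratios within a library were compared for 6 pairs of enzymes, and in all 6 the strains did not overlap (p = 0.1 for each and 0.1 after Benjamini-Hochberg adjustment over the 6 pairs, two-sided exact permutation test). This p is the smallest that 3 against 3 libraries can give. Taken singly, 75.5% of all genes did not overlap, and the share among all pairs of genes was not computed. The largest difference was that of HXK1 over HXK2, by 2.10 on the log2 scale, where the ratio was 3.57 in yJBH012 and 0.835 in yJBH000, and by 2.56 without replicate 1 of yJBH000. GLK1 over HXK2 differed by 1.13, FBA1 over TPI1 by 1.15 and PFK2 over PGI1 by 0.35. PFK1 over PFK2 and PFK26 over PFK27 were lower in yJBH012, with differences of -0.23 and -0.47, and that of PFK26 over PFK27 was -0.33 without replicate 1 of yJBH000.

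Per gene length the order of the 10 transcripts in yJBH012 was FBA1 with 14344 ± 401 FPKM, TPI1 with 6568 ± 66.2, HXK1 with 2906 ± 300, GLK1 with 1959 ± 103, PGI1 with 971 ± 30.7, HXK2 with 813 ± 52.1, PFK1 with 392 ± 2.42, PFK2 with 372 ± 2.22, PFK27 with 103 ± 3.09 and PFK26 with 32.7 ± 1.52 (SD, n = 3). No neighbours in this order overlapped. In yJBH000 the order was TPI1 with 6885 ± 460 FPKM, FBA1 with 6803 ± 771, PGI1 with 894 ± 18.5, GLK1 with 882 ± 54.3, HXK2 with 799 ± 18.7, HXK1 with 739 ± 429, PFK1 with 332 ± 24.9, PFK2 with 269 ± 7.60, PFK27 with 129 ± 7.23 and PFK26 with 57.8 ± 13.7. Here TPI1 and FBA1, PGI1 and GLK1, and HXK2 and HXK1 overlapped. These overlaps rested on replicate 1. In replicates 2 and 3 HXK1 had 486 and 496 FPKM, below HXK2 with 813 and 807, and FBA1 had 7291 and 7203 FPKM, above TPI1 with 7140 and 7161. The last 4 places were the same in both strains, and the highest transcript was 439 times the lowest in yJBH012 and 119 times in yJBH000. FPKM values carry the authors' scaling to the library total, so levels are compared here between genes of one strain.

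**Figure D5:**
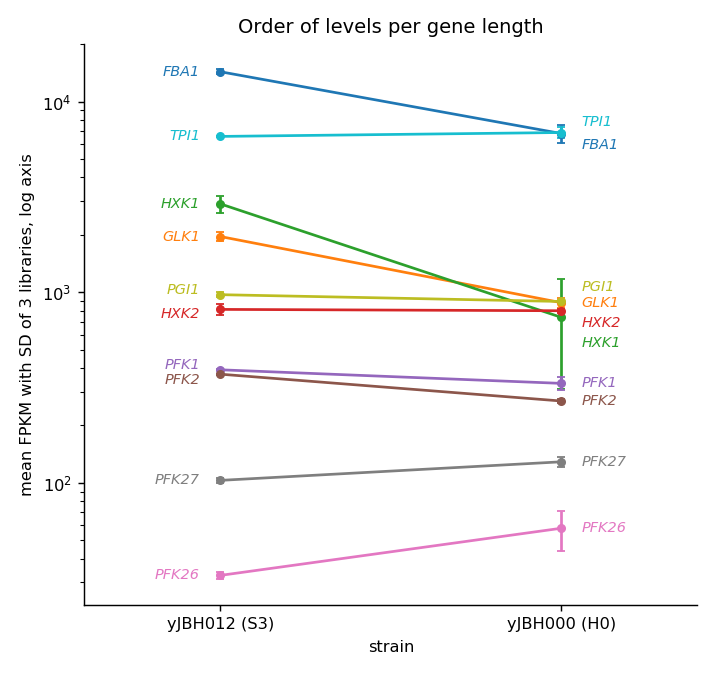
Mean FPKM of each gene (log axis) with the SD of 3 libraries, yJBH012 on the left and yJBH000 on the right, lines joining the same gene. FBA1 and HXK1 stand apart from TPI1 and HXK2 in yJBH012, while in yJBH000 their libraries overlap.

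HXK1 and the stress genes were set side by side, since replicate 1 of yJBH000 was high for both. Of 6 genes of the stress response and stationary phase, 4 were higher in yJBH012 (HSP12, CTT1, HSP26 and GPH1), SSA3 was lower and DDR2 was not called. The 6 genes summed to 4343 to 5071 CPM in yJBH012, against 1336 to 3060 CPM in yJBH000, where the highest sum was that of replicate 1, and none was at 0. DDR2 had 787 CPM in replicate 1 of yJBH000, above its 676, 730 and 693 CPM in yJBH012. HSP12 had 563, 215 and 214 CPM in yJBH000, and HSP26 had 1188, 517 and 519 CPM. Of 5 genes of growth without glucose, 0 were higher. ADH2, the alcohol dehydrogenase used on ethanol, was lower with a log2 fold change of -1.35, and ICL1, MLS1, PCK1 and JEN1 were not called. These 5 genes summed to 130 to 144 CPM in yJBH012, against 173 to 197 CPM in yJBH000. The lower sum was mainly that of ADH2, with 32.4, 29.1 and 36.0 CPM in yJBH012, against 74.0, 77.1 and 96.8 CPM in yJBH000. The log2 fold changes of the uncalled genes went both ways, at 0.15 for ICL1, 0.34 for MLS1, -0.27 for PCK1 and -0.17 for JEN1. The part of either list in the levels of HXK1 and GLK1 was not tested.

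The genes whose pattern was most like that of HXK1 over the 6 libraries, by the root mean square difference of centred log2 CPM among 5189 genes, were GSY1, GPH1 and RGI1, at 0.099, 0.10 and 0.12. GSY1 encodes glycogen synthase and GPH1 glycogen phosphorylase. Their log2 fold changes were 2.21, 2.45 and 2.44. The genes most like PFK26 were GSM1, SER3 and SOD2, at 0.043, 0.044 and 0.048, with log2 fold changes of -0.49, -0.49 and -0.56. All of these genes were picked for likeness over the same libraries, so log2 fold changes near those of HXK1 and PFK26 follow from the selection.

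Enzymes that oppose, duplicate or branch from these steps were examined as a list of 11 genes, of which 10 were higher in yJBH012 and 1 lower (median 1.02, log2 scale). Of all genes, 34.2% were called higher and 36.2% lower. Among the 10, GPD2 stood at only 0.18 and ZWF1 at 0.25 (adjusted p = 0.0493, edgeR), and the libraries of ZWF1 overlapped. Both values are smaller in size than the median of -0.35 that all genes had with total counts, so these calls depend on the scaling. FBP1, the fructose-1,6-bisphosphatase that reverses phosphofructokinase in gluconeogenesis, had 8.57, 7.24 and 7.93 CPM in yJBH012, against 12.7, 12.997 and 10.9 CPM in yJBH000. It was the lowest of the list, with a log2 fold change of -0.63 (adjusted p = 0.00254, edgeR). FBP26, which breaks down fructose-2,6-bisphosphate, had 145, 136 and 143 CPM in yJBH012, against 101, 71.0 and 71.7 CPM in yJBH000, a log2 fold change of 0.80. For this signal molecule the transcript of the degrading enzyme was therefore higher while those of its synthesis were lower or not called. YLR345W, a gene of unknown role that resembles the Pfk26 kinase family, stood at a log2 fold change of 1.21. The largest value was that of PGM2, a phosphoglucomutase, at 2.61.

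The steps after triose phosphate, from TDH1 to ADH1, gave 12 of 13 genes higher and 1 lower, with a median log2 fold change of 1.25, and 8 of them were more than 2-fold higher. Of all genes, 34.2% were called higher, 36.2% lower and 10.7% more than 2-fold higher. The extremes were ENO1 at 2.66 and PDC5 at -0.52. FBA1, PGM2 and 6 genes of this list, ENO1 among them, had been picked by the study from these libraries, so their direction is not independent evidence. Of 7 regulators of glycolytic genes, 5 were higher (34.2% of all genes), 0 lower (36.2% of all genes) and 2 not called, with a median of 0.41, and none was more than 2-fold higher. REB1 had the largest value at 0.74 and GCR2 the smallest at -0.069. GCR1, which encodes the activator known to bind the CTTCC site, had 164, 180 and 179 CPM in yJBH012, against 130, 135 and 130 CPM in yJBH000, a log2 fold change of 0.41. GCR1 is named here although it is no extreme of the list, with its value known. By total counts the medians of these 3 lists were 0.68, 0.91 and 0.08, and their calls were counted with TMM factors only.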

How the data were processed

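Total RNA libraries (NEBNext Ultra kit, Illumina) of 3 samples per strain were used. The authors deposited read counts per gene without normalization, and FPKM values made from the same counts. The submitters' processing notes name HTSeq 0.6.1 and DESeq 1.18.0. The aligner, genome build and use of strand are not given in the sources used here. Count over FPKM gave the R64 exon length for 99.8% of the 6243 genes with counts and for all 10 members, and 6436 of 6442 identifiers matched R64, which was used for names, positions and upstream sequences. Low counts were removed with filterByExpr and the remaining genes fitted without a block in edgeR 4.0.16 (R 4.3.3) by glmQLFit and glmQLFTest on TMM-scaled libraries, with Benjamini-Hochberg adjustment. CPM values use TMM factors of 0.885 to 1.14. Standard errors were derived from the same fit, as the absolute log2 fold change divided by the square root of its F statistic. The 95% intervals were built from these with the t distribution. Ratios and shares used FPKM and exact permutation tests (scipy 1.17.1), and similar genes were found with BLAST 2.17.0. Pattern likeness used log2 CPM with a prior count of 2 and a minimum mean of 4 on that scale. No library was a duplicate, with chi-square per degree of freedom of 7.27 to 87.4 between replicates. The members, lists and motifs were chosen with earlier results of these data known. Named genes are the 10 members, the extremes of the fixed lists, genes whose reaction opposes or duplicates that of a member, VAC8 and YEL014C, and the 3 genes of most like pattern for HXK1 and PFK26. GCR1 and the genes named from the stress, glucose and mating-type marker lists fall outside this rule. Alternatives were other factors (DESeq2 1.42.0 size factors, upper quartile, total count), the DESeq2 Wald test, limma-voom (limma 3.58.1), other filters, a replicate block, limma on log2 FPKM with pseudocounts of 1 or 0.1, an adjusted p under 0.01, and each library left out. Reads carry no molecular identifiers.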

Additional observations from a re-analysis of the deposited data

How the results depend on the processing

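HXK1, GLK1, FBA1, PFK1 and PFK2 kept their direction under all 17 alternatives each, with log2 fold changes of 1.98 to 2.89, 1.15 to 1.53, 1.08 to 1.46, 0.24 to 0.61 and 0.47 to 0.83. They kept their call in edgeR, DESeq2 and limma under every alternative with a test of its own. The values relative to the median of all genes have no such test. The number of members more than 2-fold higher was 3 throughout. Scalings that carry the library total moved the counts. With total counts only, log2(FPKM + 1) and log2(FPKM + 0.1), 1144, 1147 and 1143 genes were higher and 3401, 3383 and 3382 lower, against 2022 and 2138 with TMM factors, and 5 members were higher and 2 lower in each. Under these 3 settings HXK2 and PGI1 were not called, TPI1 stood at -0.068, -0.066 and -0.066 (not called), and PFK27 stood at -0.32, -0.32 and -0.32 (called lower). PFK27, uncalled elsewhere, was also below 0 with upper quartile factors (-0.028) and without replicate 3 of yJBH000, and it ranged from -0.018 to 0.044 with a library left out. The number of lower members, which is PFK26 with TMM factors, was 0 at an adjusted p under 0.01 and 0 to 1 with a library left out, and the number of higher members was then 7 to 8. Without the other genes among the 20 most counted, the share of counts of the 10 members was 1.74-fold higher in place of 1.67-fold. Relative to the median of all genes, a setting chosen after seeing the data, no member changed direction. With a replicate block 7 members were higher and 1 lower, TPI1 losing its call (log2 fold change 0.27, adjusted p = 0.0917, edgeR). Deviations of same-numbered libraries correlated by -0.0071 to 0.077 across genes. Libraries of different numbers were not compared, so this cannot decide whether the numbers pair the samples, and the labels name no pairing. Depth does not limit the members, whose lowest count was 1458, whereas 3 libraries per strain limit the exact tests to p = 0.1.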
